A study of Mus musculus with 31 samples.

Results

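Nfe2l2, the gene of the antioxidant transcription factor NRF2, was followed together with Keap1, which encodes its repressor, and 8 genes that NRF2 is known to switch on. These 10 genes were chosen by name, with earlier results of these data known. All 10 were found among the 20704 genes of the ribosome footprint counts and the 24593 genes of the total RNA counts. All 10 also passed the filters on low counts, which left 9457 genes for footprints, 11708 for RNA and 9424 for the ratio of footprints to RNA. The cells were a mouse skin squamous cell carcinoma line driven by HrasG12V. Its TgfbrII genotype is written as TgfbrII fl/fl in the labels and as TgfbrII D/D (deleted) in the published list of lines. In every group the endogenous Eif2s1 gene had been disrupted by CRISPR and replaced with a myc-tagged eIF2α transgene under the PGK promoter. In S51 cells that transgene was wild type, so that they were competent for the integrated stress response (ISR), and in S51A cells serine 51 could not be phosphorylated, so that they were ISR-null. The cells received 100 nM of the proteasome inhibitor bortezomib for 4.5 h or DMSO vehicle. The cells came from single-cell clones, and which clone gave which library was not given, so that genotype and clone cannot be told apart. Ribosome-protected fragments (RPF) were measured in 15 libraries, 3 of S51 vehicle and 4 of each other group, and total RNA in 16 libraries, 4 per group.

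NRF2 is made continuously, and in unstressed cells KEAP1 hands it to a CUL3 ubiquitin ligase so that the proteasome destroys it. Oxidants, electrophiles or a block of the proteasome let it accumulate, enter the nucleus with a small MAF partner and bind antioxidant response elements (ARE) in its target genes. The ISR acts at another step, because phosphorylated eIF2α lowers initiation on most mRNAs while some mRNAs gain ribosomes.

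Among the regulators, Nfe2l2 (Entrez gene 18024, GRCm38 chr2:75675513-75704663, minus strand) encodes NRF2 and Keap1 (50868, chr9:21229730-21239332, minus strand) its sensor. Hmox1 (15368, chr8:75093618-75100593, plus strand) encodes heme oxygenase 1, which breaks down heme. Nqo1 (18104, chr8:107388225-107403205, minus strand) encodes a quinone reductase. Gclm (14630, chr3:122245487-122267215, plus strand) and Gclc (14629, chr9:77754535-77794489, plus strand) encode the modifier and catalytic subunits of glutamate-cysteine ligase, which makes the precursor of glutathione. Gsr (14782, chr8:33653238-33698162, plus strand) encodes glutathione reductase, which returns oxidized glutathione to its reduced form. Txnrd1 (50493, chr10:82833951-82897724, plus strand) encodes cytosolic thioredoxin reductase and Srxn1 (76650, chr2:152105524-152111376, plus strand) encodes sulfiredoxin, which repairs overoxidized peroxiredoxins. Osgin1 (71839, chr8:119425882-119446257, plus strand) encodes an oxidative stress-induced growth inhibitor.

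The sequences below show where the letters of an ARE core occur near the starts of these genes. RefSeq promoter windows, from 250 bases before a gene's start to 50 bases after it (GRCm38.p6), were held for 7 of the 10 genes, and Hmox1, Gclc and Gsr had no entry. The core TGACNNNGC, searched on both strands, occurred in windows of 4 of the 7 genes (Nfe2l2, Gclm, Txnrd1 and Srxn1), while 14.0% of all 27025 genes with a window held it. Txnrd1 had 3 windows, and counted by window 4 of 9 held the core, beside 12.4% of all windows. The variant TGAGNNNGC occurred in 2 of the 7 (Srxn1 and Osgin1), against 19.8% of all genes. The AP-1 element TGACTCA can overlap with these cores, was also searched on both strands, and occurred in the windows of Srxn1 and Osgin1, against 5.95% of all genes. The windows of Keap1 and Nqo1 held none of these letters. Each sequence reads 5′ to 3′ along the gene's own strand, with the match in capitals. A match that starts with GC is the core on the opposite strand.
Nfe2l2 core, chr2:75704884-75704913, minus strand: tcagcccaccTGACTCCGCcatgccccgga
Gclm core, chr3:122245413-122245442, plus strand: gctcccgggcGCACCGTCAactctcacgag
Txnrd1 core, chr10:82859104-82859133, plus strand: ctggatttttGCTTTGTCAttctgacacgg
Srxn1 core, chr2:152105542-152105571, plus strand: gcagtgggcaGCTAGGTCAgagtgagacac
Srxn1 variant, chr2:152105469-152105498, plus strand: aaattcacccTGAGTCAGCggccgggcgcg
Osgin1 variant, chr8:119437038-119437067, plus strand: aggggcccctGCTGACTCAcgcttatgaaa
The Txnrd1 and Osgin1 matches lay in windows of starts that are inside the gene spans given above, downstream of their first base. The Srxn1 and Osgin1 variants shown each contain the AP-1 letters. A further Srxn1 variant match, at chr2:152105356-152105385, is not shown. Sequence outside the windows was not searched. A match is a run of letters, and no binding was measured here.

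Library totals were 1038826 to 4902237 counts for RPF and 18758668 to 22994713 for RNA, so that RNA values carry less counting error than RPF values. Levels are given as counts per 1e6 counts (CPM) after scaling by trimmed mean of M-values (TMM). The RNA of the 8 basal keratinocyte markers summed to 12692 to 13231 CPM in S51 vehicle, 15351 to 17722 CPM in S51 bortezomib, 16385 to 16537 CPM in S51A vehicle and 17103 to 18528 CPM in S51A bortezomib, so that S51 vehicle lay below the other groups. The 5 leukocyte markers summed to at most 0.274 CPM. The 5 fibroblast markers summed to 2.69 to 3.85 CPM in S51 and 4.18 to 6.94 CPM in S51A, of which Pdgfra gave nearly all, and Col1a2, Dcn and Lum were at 0 in every library. The 3 endothelial markers summed to 2.36 to 4.88 CPM in S51 and 1.23 to 2.02 CPM in S51A, mostly Kdr, and the 4 melanocyte markers to 1.20 to 2.63 CPM over all groups, with Dct at 0. The part of these markers in the results was not tested. Eif2s1 counts, from the transgene and any remaining endogenous transcript together, ranged from 279 to 314 CPM in RNA. In RPF they were lower in S51 than in S51A vehicle libraries, at 81.2 to 171 CPM against 213 to 259.8 CPM, and ranged from 148 to 196 CPM and 190.3 to 235 CPM with bortezomib. Neither measure shows the serine change. S51 vehicle RPF replicate 2 stood apart from its group, with a chi-square per gene of 12.8 and 18.1 against the other libraries of that group, while all other pairs of RPF libraries of 1 group were at 1.65 to 4.92. Without it 8 of the 10 genes were called higher with bortezomib in S51 RPF in place of 7, 2 in place of 1 in the RPF response difference, and 0 in place of 1 in S51 TE. Replicates are described both as technical and as independent, so that p-values measure the spread between these libraries, which may be technical.

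Footprint density, the RPF CPM per kilobase of counted coding sequence, placed Txnrd1 first and Nqo1 last in S51 vehicle cells, at 187 ± 11.9 and 7.15 ± 1.83 CPM per kb (SD, n = 3). Between them came Gclc, Gsr, Srxn1, Nfe2l2, Gclm, Hmox1, Keap1 and Osgin1 in falling order. The library ranges of Gclc and Gsr overlapped, as did those of Srxn1 and Nfe2l2, of Gclm and Hmox1, and of Keap1 and Osgin1. Nfe2l2, at 73.0 ± 9.44 CPM per kb, thus held a middle place among its own targets. In S51 cells with bortezomib Txnrd1 reached 489.5 ± 14.2 CPM per kb (SD, n = 4), Hmox1 was at 205 ± 16.2 CPM per kb, in a run of overlapping neighbours from Gclc through Srxn1, Hmox1 and Gclm to Gsr. Nfe2l2, at 130.3 ± 3.58 CPM per kb, lay below that run and overlapped with Osgin1. In S51A vehicle cells Gsr and Txnrd1 led, with overlapping ranges, and Osgin1 was last at 9.82 ± 1.93 CPM per kb (SD, n = 4). These densities use the longest RefSeq coding sequence of each gene, and Txnrd1 has several isoforms.

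In ISR-competent cells, bortezomib raised the footprints of 7 of the 10 genes and the RNA of 6, and none of the 10 had a log2 change below 0. A call required a Benjamini-Hochberg adjusted p under 0.05 and a fold change over 1.5 in edgeR's quasi-likelihood test. Of all genes tested, 7.38% were called higher and 11.2% lower in RPF, and 5.70% higher and 9.59% lower in RNA. Scaling by library totals alone turned the split of all RNA calls from 667 of 1790 higher to 416 of 2149 higher, and called the same number of the 10 genes. In footprints Osgin1, Hmox1 and Gclm rose most, Srxn1, Txnrd1, Gclc and Nfe2l2 rose less, and Keap1, Nqo1 and Gsr stayed under the fold threshold. The median log2 change of the 10 genes was 1.23 in RPF and 1.00 in RNA, beside 0.00 and -0.01 over all genes tested. The groups did not overlap in 9 of 10 genes in RPF and in 10 of 10 in RNA, always with bortezomib higher. Over all genes tested the corresponding shares were 32.2% and 53.8% in either direction.

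In ISR-null cells the same contrast called 6 of the 10 genes higher in RPF and 6 in RNA, and again none had a log2 change below 0. The background was 4.19% called higher and 6.67% lower in RPF, and 4.54% higher and 8.57% lower in RNA, where totals alone turned the split of calls from 532 of 1535 higher to 373 of 1804 higher. The genes called in S51A were Hmox1, Gclm, Gclc, Txnrd1, Srxn1 and Osgin1 in RPF and in RNA. These 6 were also called in S51 cells on both measures, and Nfe2l2 was the further gene called in S51 footprints. The median log2 change of the 10 genes was 1.28 in RPF and 1.24 in RNA. The groups did not overlap in 7 genes in RPF, where 28.1% of all genes did not overlap, and in 10 genes in RNA, where the share was 49.3%.

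**Figure D1:**
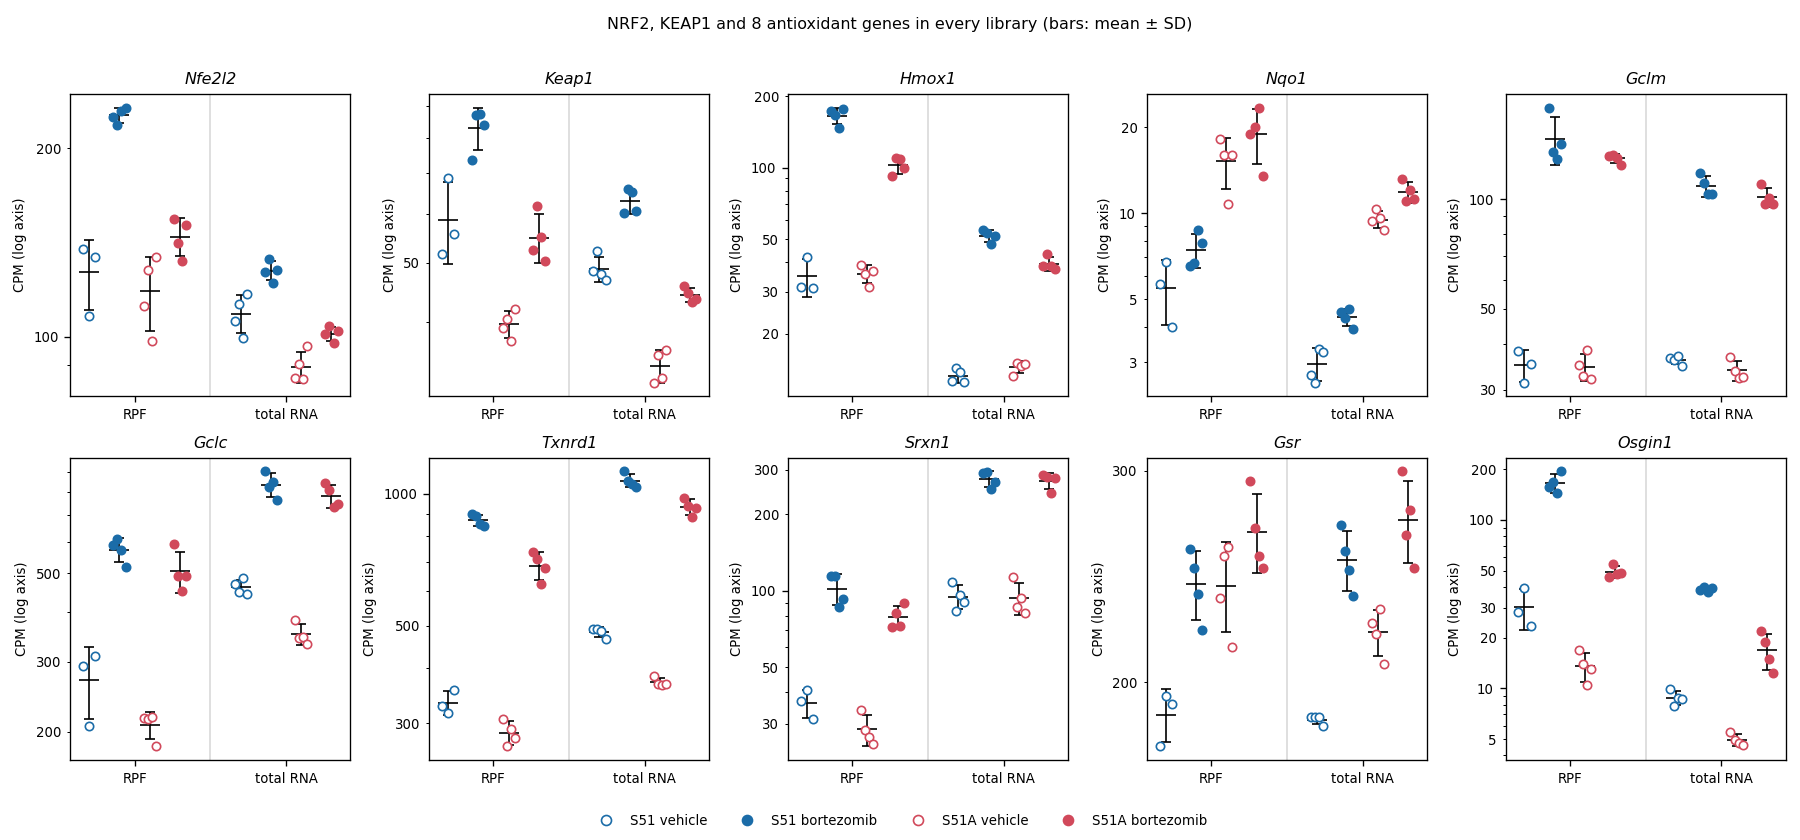
Levels of the 10 genes in every library, in CPM on log axes with a separate range for each gene. Points are libraries, open for vehicle and filled for bortezomib, in blue for S51 and red for S51A, with bars for the mean ± SD; Nfe2l2 footprints in S51 bortezomib cells lie at 218 to 232 CPM, above every other group, while Nqo1 is lower in S51 than in S51A throughout.

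Nfe2l2 footprints rose in S51 cells while its RNA stayed under the fold threshold. Its RPF level was 138, 108 and 134 CPM in the 3 S51 vehicle libraries and 224, 218, 229 and 232 CPM in the 4 with bortezomib. In S51A cells it was 112, 128, 98.4 and 134 CPM with vehicle and 154, 141, 132 and 151 CPM with bortezomib. The S51 bortezomib libraries thus lay above all others, whereas the S51A groups overlapped. Its RNA level was 106, 113, 99.7 and 117 CPM in S51 vehicle, 127, 133, 122 and 128 CPM in S51 bortezomib, 85.8, 90.4, 85.7 and 96.5 CPM in S51A vehicle and 101, 104, 97.6 and 102 CPM in S51A bortezomib. The log2 fold change of RPF was 0.83 ± 0.11 (SE) in S51 (edgeR, adjusted p = 7.23e-06) and 0.28 ± 0.10 in S51A (edgeR, adjusted p = 0.0534). That of RNA was 0.23 ± 0.05 in S51 and 0.17 ± 0.05 in S51A, past the adjusted p in each genotype (edgeR, 0.000149 and 0.00326) but under 1.5-fold. With library totals alone the RNA values were 0.07 and 0.06, and neither passed (edgeR, adjusted p = 0.157 and 0.311).

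Keap1, which encodes the repressor of NRF2, was measured at 51.7, 68.7 and 55.8 CPM of RPF in S51 vehicle and 73.5, 87.0, 87.4 and 84.0 CPM in S51 bortezomib. In S51A cells the values were 39.2, 40.5, 37.3 and 42.0 CPM with vehicle and 52.5, 61.9, 55.1 and 50.3 CPM with bortezomib. In each genotype the bortezomib libraries lay above the vehicle libraries. The log2 fold changes of RPF, 0.51 ± 0.12 (SE) in S51 and 0.45 ± 0.11 in S51A, passed the adjusted p (edgeR, 0.00248 and 0.00599) but were under 1.5-fold. Without S51 vehicle replicate 2, the S51 value was 0.63 and was called. The RNA changes were 0.37 ± 0.05 in S51 and 0.38 ± 0.05 in S51A, also under the threshold.

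Hmox1, the heme oxygenase gene, had the largest difference in response between the 2 genotypes among the 10 genes. Its footprints were at 31.5, 42.1 and 31.1 CPM in S51 vehicle and at 173, 166, 147 and 176 CPM in S51 bortezomib. In S51A cells they were at 38.8, 35.7, 31.5 and 36.9 CPM with vehicle and at 92.5, 110.1, 109 and 99.4 CPM with bortezomib. The vehicle groups of the 2 genotypes overlapped, and the bortezomib groups did not. The rise in RPF was 4.81-fold in S51 and 2.86-fold in S51A, log2 values of 2.27 ± 0.13 (SE) and 1.51 ± 0.11 (edgeR, adjusted p = 1.55e-11 and 1.84e-09). Its RNA was at 12.7, 14.3, 13.8 and 12.5 CPM in S51 vehicle, 54.5, 53.1, 47.9 and 51.3 CPM in S51 bortezomib, 13.3, 15.1, 14.6 and 14.9 CPM in S51A vehicle and 38.7, 43.2, 38.4 and 37.3 CPM in S51A bortezomib. RNA thus showed the same order of groups, with a 3.87-fold rise in S51 and a 2.72-fold rise in S51A.

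Osgin1, the growth inhibitor gene, had the largest fold rise of the 10 genes in S51 footprints and RNA. Its RPF level was 28.3, 39.6 and 23.4 CPM in S51 vehicle, 156, 167, 144 and 194 CPM in S51 bortezomib, 16.8, 13.9, 10.4 and 13.0 CPM in S51A vehicle and 45.7, 54.6, 47.9 and 48.4 CPM in S51A bortezomib. No pair of these groups overlapped along genotype or treatment. The rise was 5.57-fold in S51 and 3.63-fold in S51A, with log2 values of 2.48 ± 0.16 (SE) and 1.86 ± 0.16 (edgeR, adjusted p = 1.39e-10 and 3.1e-08). In RNA the rise was 4.43-fold in S51 and 3.42-fold in S51A. RNA levels were 7.84 to 9.87 CPM in S51 vehicle, 37.2 to 40.1 CPM in S51 bortezomib, 4.60 to 5.52 CPM in S51A vehicle and 12.4 to 21.8 CPM in S51A bortezomib.

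Of the glutathione-making enzyme, the modifier subunit gene Gclm rose on both measures in both genotypes. Gclm footprints were at 38.3, 31.4 and 35.3 CPM in S51 vehicle, 178, 135, 129 and 142 CPM in S51 bortezomib, 35.0, 32.7, 38.6 and 32.2 CPM in S51A vehicle and 131, 132, 130.0 and 124 CPM in S51A bortezomib. The vehicle groups overlapped with each other, as did the bortezomib groups. Its RPF rise was 4.12-fold in S51 and 3.76-fold in S51A, with log2 values of 2.04 ± 0.12 (SE) and 1.91 ± 0.11 (edgeR, adjusted p = 6.5e-11 and 4.58e-11). Its RNA rise was 3.01-fold and 2.98-fold. The catalytic subunit gene Gclc started from higher RNA in S51 (445 to 486 CPM) than in S51A (332 to 382 CPM) and reached 766 to 903 CPM and 735 to 846 CPM. Its RNA rise was 1.81-fold in S51 and 2.23-fold in S51A, and its RPF rise 2.11-fold and 2.44-fold. Gsr, which regenerates glutathione, stood at 0.36 ± 0.09 (log2, SE) in S51 RPF and 0.15 ± 0.09 in S51A RPF, below the fold threshold. Its RPF ranges were 177 to 195 CPM and 221 to 258 CPM in S51 vehicle and bortezomib, and 214 to 259 CPM and 249 to 294 CPM in S51A, where they overlapped.

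The thioredoxin-side genes Txnrd1 and Srxn1 rose in both genotypes. Txnrd1 RPF was 328, 316 and 357 CPM in S51 vehicle, 898, 889.5, 854 and 847 CPM in S51 bortezomib, 307, 266, 291 and 277 CPM in S51A vehicle and 737, 709.5, 622 and 678 CPM in S51A bortezomib. Each bortezomib group lay above both vehicle groups, and the S51 libraries lay above the S51A libraries under either condition. The RPF rise was 2.61-fold in S51 and 2.41-fold in S51A, and the RNA rise 2.22-fold and 2.51-fold. Srxn1 RPF was 31.4 to 40.6 CPM in S51 vehicle, 86.6 to 114 CPM in S51 bortezomib, 24.9 to 34.1 CPM in S51A vehicle and 72.2 to 89.4 CPM in S51A bortezomib. Its rise was 2.81-fold in RPF in each genotype and 2.91-fold and 2.89-fold in RNA.

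Nqo1, although a textbook NRF2 target, was not called for bortezomib over vehicle in either genotype with all libraries fitted. Its footprint density was the lowest of the 10 in S51 cells. Its RPF level was 5.67, 6.77 and 3.98 CPM in S51 vehicle, 6.55, 6.70, 8.70 and 7.84 CPM in S51 bortezomib, 18.2, 16, 10.8 and 16 CPM in S51A vehicle and 19.0, 20.0, 23.4 and 13.5 CPM in S51A bortezomib. The treatments overlapped within each genotype, and the genotypes did not overlap within either treatment. Its RNA was 2.55 to 3.35 CPM in S51 vehicle, 3.94 to 4.62 CPM in S51 bortezomib, 8.72 to 10.3 CPM in S51A vehicle and 11.0 to 13.2 CPM in S51A bortezomib. The RNA log2 changes with bortezomib, 0.54 ± 0.12 (SE) in S51 and 0.32 ± 0.09 in S51A, passed the adjusted p (edgeR, 0.000465 and 0.00307) and not the fold threshold. The S51 value was 0.60 without S51 vehicle RNA replicate 3 and 0.59 without replicate 4, and was then called.

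**Figure D2:**
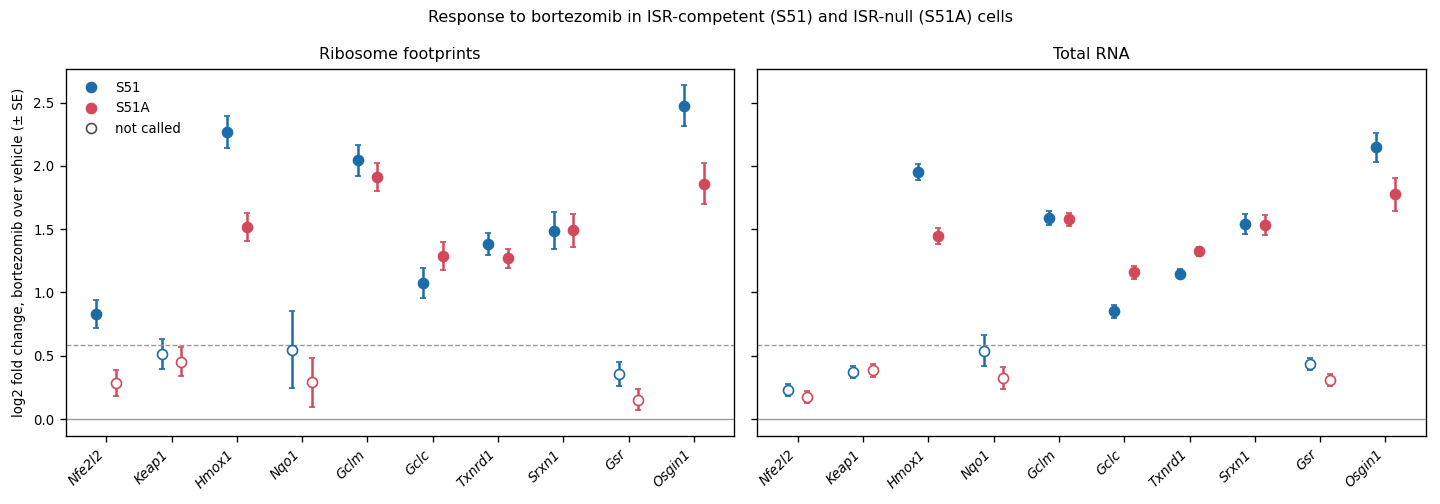
Log2 fold changes of bortezomib over vehicle for the 10 genes in ribosome footprints (left) and total RNA (right), with SE bars, in S51 (blue) and S51A (red); filled points were called and the dashed line is 1.5-fold. Hmox1 footprints stand at 2.27 in S51 and 1.51 in S51A, and Nfe2l2 is filled only for S51 footprints.

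Whether the genotypes differed in their response was tested by the interaction of genotype and treatment. In RPF 1 of the 10 genes was called, where 1.86% of all genes were: Hmox1, with a difference of 0.75 ± 0.17 (log2, SE) in favour of S51 (edgeR, adjusted p = 0.0177, range 0.000162 to 0.053 over the alternatives). Without S51 vehicle RPF replicate 1 it was 0.69 and was not called. The difference for Nfe2l2 RPF was 0.55 ± 0.15 and that for Osgin1 RPF 0.62 ± 0.23, and neither passed (edgeR, adjusted p = 0.0566 and 0.178). Over the alternatives the adjusted p of Nfe2l2 ranged from 0.0218 to 0.135 (edgeR or DESeq2). They were called once each, Nfe2l2 at 0.62 without S51A vehicle RPF replicate 3 and Osgin1 at 0.82 without S51 vehicle RPF replicate 2. In RNA no gene of the 10 was called by edgeR or DESeq2, where edgeR called 2.09% of all genes (157 of 245 with a larger value in S51, and 132 of 258 with totals alone), although 4 of the 10 had an unadjusted p under 0.05. Of these, Hmox1 (0.51 ± 0.09), Gclc (-0.31 ± 0.07) and Txnrd1 (-0.18 ± 0.05) passed the adjusted p alone (edgeR, 0.000346, 0.00312 and 0.00955). On the log2 scale the change of Hmox1 RNA was thus larger in S51 cells, and those of Gclc and Txnrd1 RNA were larger in S51A cells. Each difference was under the fold threshold, and Gclc and Txnrd1 RNA started from higher levels in S51 vehicle cells. The RPF differences of Gclc (-0.21 ± 0.16) and Txnrd1 (0.11 ± 0.11) did not pass. For Nfe2l2 RNA the difference was 0.06 ± 0.07.

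Translation efficiency (TE), the RPF change beyond the RNA change, was tested in 1 model over both kinds of library. In S51 cells 1 of the 10 genes was called, Nfe2l2, where 5.28% of all genes were called in either direction. The ratio of Nfe2l2 RPF CPM to the group's mean RNA CPM was 1.16 ± 0.15 (SD, n = 3) in S51 vehicle and 1.77 ± 0.05 (SD, n = 4) in S51 bortezomib. The ranges were 0.991 to 1.267 and 1.711 to 1.823. In S51A the ratio was 1.32 ± 0.18 with vehicle and 1.43 ± 0.10 with bortezomib (SD, n = 4 each). The RNA mean is fixed within a group, so that these SDs and ranges carry the spread of RPF alone. The TE change of Nfe2l2 was 0.60 ± 0.11 (log2, SE) in S51 (edgeR, adjusted p = 0.000189), just over 1.5-fold, and 0.10 ± 0.10 in S51A (edgeR, adjusted p = 1). The adjusted p in S51 stayed between 8.61e-07 and 0.00262 over 41 alternatives. Here and for the interaction below, they include the footprint test combined with the TE fold, which carries the adjusted p of RPF. The fold slipped under 1.5 with either replicate block and with the stricter count filter (0.57 each). It also slipped without S51 vehicle RPF replicate 2 (0.51), the library that stood apart, and without S51 bortezomib RPF replicate 4 (0.58), S51 vehicle RNA replicate 2 (0.58) or 4 (0.56), or S51 bortezomib RNA replicate 3 (0.58). The interaction for Nfe2l2 TE, 0.50 ± 0.15 in favour of S51, did not pass (edgeR, adjusted p = 0.0916, range 0.0251 to 0.277 over the alternatives). With library totals alone it was 0.56 and passed the adjusted p (edgeR, 0.0488) but not the fold.

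The other 9 genes had smaller TE values in S51. Gclm, at 0.44 ± 0.13 (log2, SE) in S51, passed the adjusted p (edgeR, 0.0187) and not the fold, and stood at 0.34 ± 0.11 in S51A (edgeR, adjusted p = 0.232). Osgin1 was at 0.35 ± 0.21, Hmox1 at 0.32 ± 0.13 and Keap1 at 0.16 ± 0.11 in S51, none past the test. No gene of the 10 was called in S51A by edgeR or DESeq2, where edgeR called 0.987% of all genes and 1 of the 10 had an unadjusted p under 0.05. The interaction likewise called none with either tool (1.29% of all genes with edgeR, and 2 of the 10 at an unadjusted p under 0.05). Of these calls over all genes 20 of 122 had a larger value in S51, and 37 of 98 with totals alone. TMM scaling set the RNA changes 0.15 higher in S51 and 0.12 higher in S51A, and the S51 TE changes 0.15 lower, than library totals alone. With totals alone the TE change of Gclm in S51 was 0.60 and was called. Over all genes the same choice turned the split of S51 TE calls from 98 of 498 higher to 389 of 633 higher.

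**Figure D3:**
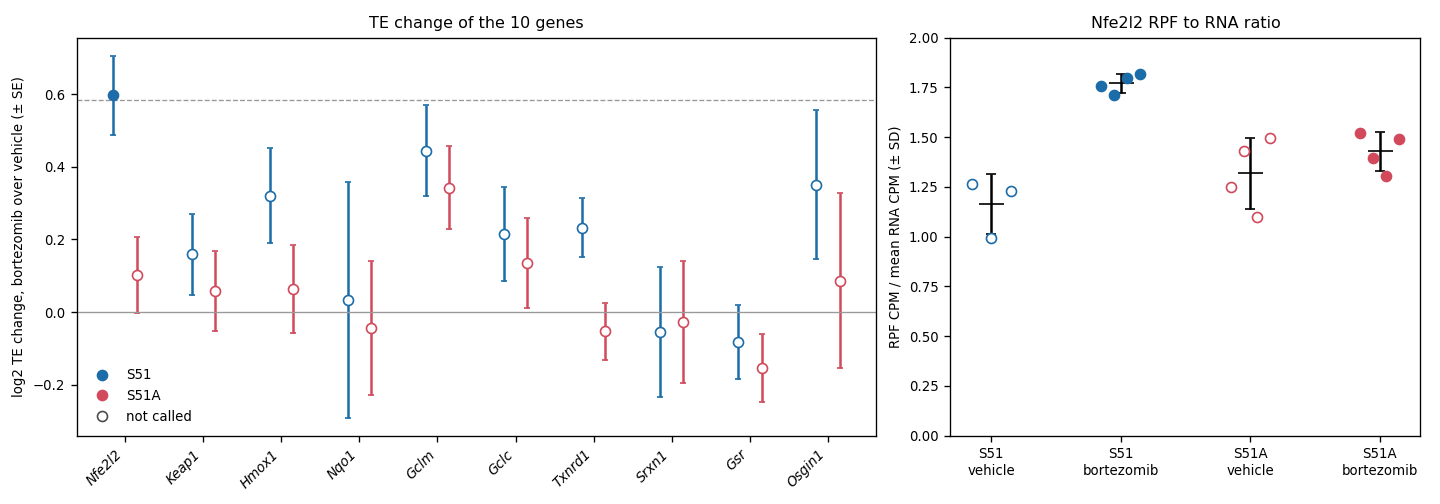
Left, log2 TE change of bortezomib over vehicle for the 10 genes with SE bars in S51 (blue) and S51A (red), filled where called, with a dashed line at 1.5-fold. Right, the ratio of Nfe2l2 RPF CPM in each library to the mean RNA CPM of its group, with mean ± SD, where the spread is that of RPF alone. S51 bortezomib libraries lie at 1.711 to 1.823 and S51 vehicle libraries at 0.991 to 1.267.

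The genotypes were also compared at baseline. Under vehicle, Osgin1 was higher and Nqo1 lower in S51 than in S51A cells in RPF and in RNA, 2 of 10 genes called on each measure a share near that of all genes, 15.8% in RPF and 17.5% in RNA. Osgin1 differed 2.20-fold in RPF and 1.77-fold in RNA, and Nqo1 was 2.92-fold and 3.18-fold lower (edgeR, adjusted p = 8.71e-05 and 2.27e-05 for Osgin1, and 8.91e-05 and 1.54e-12 for Nqo1). Keap1 was 1.46-fold higher in RPF and 1.44-fold higher in RNA, under the fold threshold (edgeR, adjusted p = 0.00169 and 2.74e-09). Its RPF difference was called without S51 vehicle RPF replicate 1 (0.62, log2) or 3 (0.62). With 1 library left out at a time it ranged from 0.43 to 0.62. S51 vehicle RPF replicate 2, the library that stood apart, held the highest Keap1 level of its group (68.7 CPM). Gclc (0.40 ± 0.05, log2 and SE), Txnrd1 (0.38 ± 0.03) and Nfe2l2 (0.28 ± 0.05) RNA were somewhat higher and Gsr RNA (-0.24 ± 0.05) lower in S51, each past the adjusted p and under the fold. The groups did not overlap in 5 of 10 genes in RPF and 7 of 10 in RNA, beside 33.0% and 56.6% of all genes. No gene of the 10 differed in TE under vehicle by edgeR or DESeq2, none had an unadjusted p under 0.05, and 0.0849% of all genes were called.

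Under bortezomib 5 of the 10 genes differed between the genotypes in RPF and 2 in RNA, beside 17.7% and 20.0% of all genes. Footprints of Nfe2l2 (1.56-fold), Keap1 (1.52-fold), Hmox1 (1.61-fold) and Osgin1 (3.36-fold) were higher in S51, and those of Nqo1 were 2.44-fold lower (edgeR, adjusted p = 5.48e-05, 0.000318, 3.02e-05, 4.35e-09 and 0.000315). Keap1 fell under the fold threshold without S51 bortezomib RPF replicate 3 (0.57, log2) or S51A bortezomib RPF replicate 1 (0.58) or 4 (0.56). In RNA the calls were Osgin1, 2.29-fold higher, and Nqo1, 2.74-fold lower. The RNA differences of Nfe2l2 (0.34 ± 0.05, log2 and SE), Keap1 (0.51 ± 0.05), Hmox1 (0.39 ± 0.06) and Txnrd1 (0.20 ± 0.03) passed the adjusted p and not the fold. The groups did not overlap in 6 of 10 genes on each measure, beside 34.4% of all genes in RPF and 56.9% in RNA. In TE none of the 10 was called by edgeR or DESeq2, beside 3.08% of all genes with edgeR (52 of 290 higher in S51, and 128 of 271 with totals alone), and 3 had an unadjusted p under 0.05. These were Nfe2l2 (0.31 ± 0.10), Hmox1 (0.30 ± 0.11) and Osgin1 (0.56 ± 0.18). Osgin1 TE was called without S51 bortezomib RPF replicate 3 (0.63) and without S51A bortezomib RNA replicate 3 (0.61) or 4 (0.68). These contrasts share libraries with the treatment contrasts above and are not independent of them.

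The wider pathway was read from 6 lists of 61 genes, of which 57 were tested in RPF and 59 in RNA. The lists were written with earlier results of these data known, so that their counts beside the shares of all genes are descriptive. In S51 cells 20 genes of these lists rose in RPF and 18 in RNA, where 7.38% and 5.70% of all genes were called higher. No list gene was called lower in S51 by edgeR or DESeq2, while 1 in RPF and 4 in RNA had an unadjusted p under 0.05 (edgeR) and a value below 0. In S51A cells 13 rose and 2 fell in RPF, and 11 rose and 3 fell in RNA, beside 4.19% of all genes higher and 6.67% lower in RPF, and 4.54% higher and 8.57% lower in RNA. These shares are the background of every list below, and a single gene called in a list is near them. With library totals alone the RNA counts were 9 higher and 1 lower in S51, and 7 higher and 3 lower in S51A. Median log2 changes of RNA over the lists were 0.35 in S51 and 0.31 in S51A, below those of the 10 genes, and 0.19 and 0.20 with totals alone. The interaction called 4 of the 59 in RNA (Maff, Sqstm1, Chac1 and Txnip), beside 2.09% of all genes, all 4 with a larger value in S51.

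**Figure D4:**
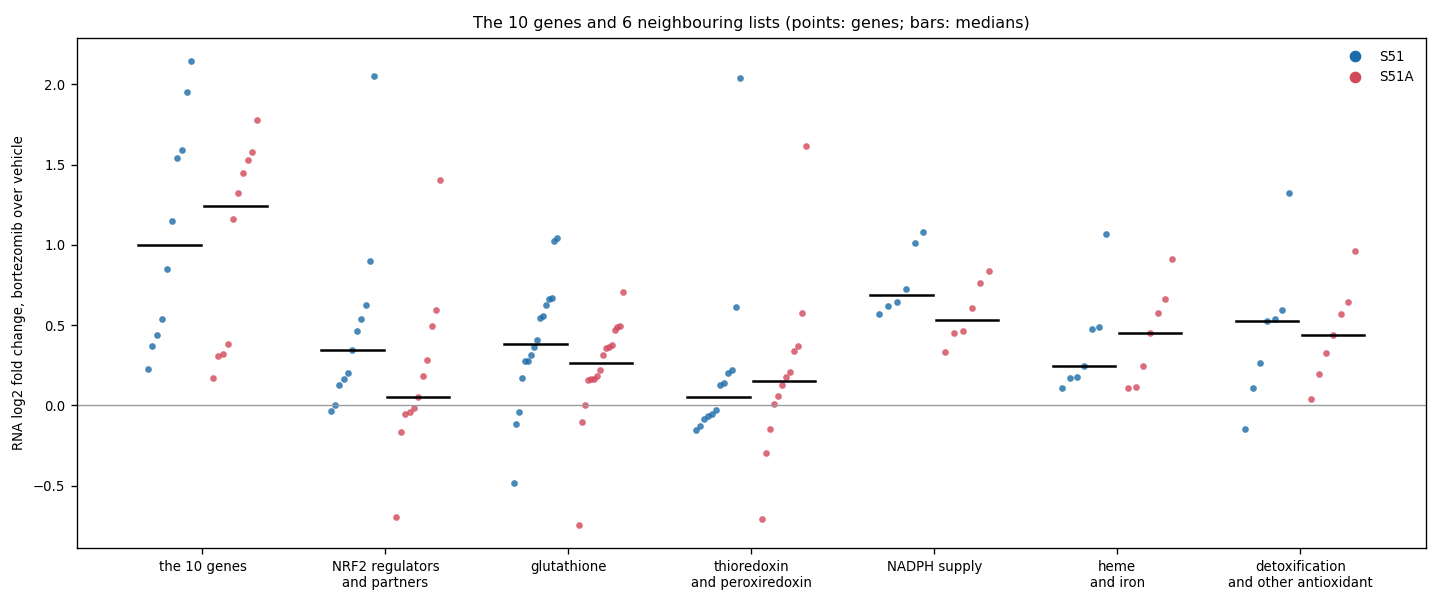
RNA log2 fold changes of bortezomib over vehicle for the 10 genes and 6 lists of related genes, with points for genes and bars for medians, in S51 (blue) and S51A (red). The 10 genes and the NADPH supply list have every gene above 0, as does the heme and iron list in S51. Sqstm1 (2.05 in S51) and Sesn2 (2.04 in S51) stand apart from their lists.

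Among the NRF2 regulators and partners, 3 of 11 tested genes rose in S51 RNA, and 2 rose and 1 fell in S51A RNA. With totals alone 2 were higher in S51, and 1 was higher and 1 lower in S51A. Sqstm1, whose product p62 can capture KEAP1, rose 4.15-fold in S51 and 2.65-fold in S51A RNA, and 3.96-fold and 2.80-fold in RPF. The interaction of Sqstm1 RNA was 0.65 ± 0.08 (log2, SE; edgeR, adjusted p = 7.98e-06). Mafg, a small MAF partner of NRF2, rose 1.87-fold in S51 RNA and stood at 1.41-fold in S51A, under the threshold. In RPF the calls were the other way round, with Mafg called higher in S51A and not in S51. Maff, another small MAF gene, was the gene called lower in S51A RNA. Rbx1, a subunit of the CUL3 ligase, was at -0.04 ± 0.04 in S51 RNA. Cul3 was called lower in S51 than in S51A in TE under bortezomib, and was named after its value was seen. It was 1 of 57 list genes tested there, beside 3.08% of all genes called in either direction, and no other list gene was called.

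Among the NADPH supply genes, which feed reducing power to Gsr and Txnrd1 products, 5 of 6 rose in S51 RNA and 3 in S51A RNA, and 2 in each genotype with totals alone. Me1, for malic enzyme, rose 2.11-fold and 1.78-fold, and Pgd, of the pentose phosphate pathway, 2.01-fold and 1.69-fold. G6pdx, which starts that pathway, was at 1.48-fold and 1.37-fold in RNA, under the threshold in each genotype. In RPF, 5 of 6 rose in S51, with G6pdx among them, and 3 in S51A, without it.

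Of the glutathione list 5 of 16 genes rose in S51 RNA, and in S51A 1 rose and 1 fell. With totals alone the counts in S51 were 2 higher and 1 lower, and those in S51A did not move. Chac1, whose product degrades glutathione and which is a known target of the ISR factors ATF4 and CHOP, turned in opposite directions. Its RNA was 16.4 to 27.1 CPM in S51 vehicle, 36.4 to 47.4 CPM in S51 bortezomib, 18.4 to 30.0 CPM in S51A vehicle and 9.63 to 17.4 CPM in S51A bortezomib. The bortezomib groups lay above vehicle in S51 and below it in S51A, with folds of 2.03 and 0.597 and an interaction of 1.77 ± 0.22 (log2, SE; edgeR, adjusted p = 5.11e-06). Mgst1, a microsomal glutathione transferase gene, rose 2.06-fold in S51 RNA (edgeR, adjusted p = 0.0163) and stood at 1.41-fold in S51A. Glrx, for glutaredoxin, was at -0.49 ± 0.19 in S51 RNA, under the fold threshold.

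Of the thioredoxin and peroxiredoxin list 2 of 12 genes rose in S51 RNA, and in S51A 1 rose and 1 fell. With totals alone 1 was higher in S51. Sesn2, a stress-inducible sestrin gene, rose 4.11-fold in S51 and 3.06-fold in S51A RNA, and Prdx1, for a peroxiredoxin that Srxn1's product repairs, rose 1.53-fold in S51 and stood at 1.49-fold in S51A. Prdx3 was at -0.15 ± 0.04 in S51 RNA. Of the heme and iron list 1 of 7 genes rose in S51 RNA and 2 in S51A RNA, while in RPF 5 rose in S51 and 4 in S51A. With totals alone 1 was higher in RNA in each genotype, and 5 and 3 in RPF. Blvrb, for biliverdin reductase B, rose 2.10-fold and 1.88-fold in RNA. Slc48a1, for a heme transporter, rose 1.59-fold in S51A RNA and stood at 1.41-fold in S51, and Hmox2, the constitutive heme oxygenase, was at 1.08-fold in each genotype. Of the detoxification list 2 of 7 tested genes rose in RNA in each genotype, and 1 with totals alone. Cbr3, for a carbonyl reductase, rose 2.50-fold in S51 and 1.95-fold in S51A, catalase Cat rose 1.51-fold in S51 and stood at 1.35-fold in S51A, and Cbr1 was at -0.15 ± 0.08 in S51.

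Over the mean log2 levels of the 8 groups, centred for each gene within RPF and within RNA, the genes most like Nfe2l2 among 9424 were Ccl25, Nepro and Fth1, with root mean square differences of 0.042, 0.051 and 0.073. Fth1, for the ferritin heavy chain, had log2 changes of 0.81 in S51 RPF, 0.43 in S51A RPF, 0.18 in S51 RNA and 0.24 in S51A RNA. It was the gene of the 6 lists called higher in S51 TE, at 0.62 ± 0.13 (SE), and Tkt was the gene called lower, at -0.63 ± 0.08; both were named after their values were seen. The genes most like Hmox1 were Sqstm1, Susd6 and Gclm, at 0.105, 0.151 and 0.167. Among the 10 genes, Keap1 ranked 238th in likeness to Nfe2l2, and Hmox1 8781st, while Nfe2l2 ranked 582nd in likeness to Hmox1. The measure is not scaled for the size of a change, so that a gene with large changes ranks far from Nfe2l2 whatever their direction.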

How the data were processed

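The data were counts of ribosome footprints (15 libraries) and total RNA (16 libraries) per gene. The authors made the deposited counts, which are whole numbers and not normalized, from reads mapped to mm10 with Bowtie2. RPF counts covered coding sequences less 60 bases at the ends. The region counted for RNA was not given in the sources used here, so that levels were compared between genes only for RPF. The submitters' processing notes also name featureCounts and DESeq2. Columns of S51 bortezomib and S51A vehicle were assigned by the submitters' remark on exchanged titles. The treatment time is 4.5 h in the labels and 4 h in the published methods. Members and lists were chosen with earlier results of these data known.

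Counts were fitted with edgeR 4.0.16 (R 4.3.3; filterByExpr, TMM, quasi-likelihood test, Benjamini-Hochberg over all genes), over all groups of a kind, and over 31 libraries for TE. CPM used TMM factors. The RPF and TE fits were tested on simulated data for S51 bortezomib over S51 vehicle. The RNA fit alone and the other comparisons were not tested in this way. DESeq2 1.42.0, other scalings, filters and designs, and leaving out each library were alternatives. All 10 genes were named; from each list, the genes with the largest, the highest and the lowest S51 RNA change. Same-numbered libraries were not treated as pairs.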

Additional observations from a re-analysis of the deposited data

Results flagged for a closer look

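The response to bortezomib differed between S51 and S51A cells, by the interaction test of edgeR and adjusted p alone, for 3 genes. For Hmox1 the difference was 0.75 (log2) in RPF, from changes of 2.27 and 1.51, and 0.51 in RNA, from 1.95 and 1.45. For Gclc RNA it was -0.31, from 0.85 and 1.16, and for Txnrd1 RNA -0.18, from 1.15 and 1.33. In 3 of 70 sets of 4 libraries, a library stood apart from the other 3 by Dixon's criterion, which chance alone meets in about 1 of 20 sets. Gclc RPF was 184 CPM in S51A vehicle replicate 4 and 215 to 218 CPM in the others, Txnrd1 RNA was 384 CPM in S51A vehicle replicate 1 and 367 to 369 CPM in the others, and Gsr RNA was 184 CPM in S51 vehicle replicate 4 and 187 CPM in the others. The S51 vehicle RPF group, with 3 libraries, was not among these sets. Its replicate 2 differed from the other 2 by a chi-square per gene of 12.8 and 18.1, where the next highest RPF pair was at 4.92.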

How the results depend on the processing

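Numbers of the 10 genes called changed as follows. With at least 10 counts in every library, which leaves Nqo1 untested, S51 over S51A had 1 gene under vehicle and 3 under bortezomib in RPF, and S51 TE had 0. With a 2-fold threshold, RPF had 2 genes for S51 over S51A under bortezomib and 0 for the response difference, RNA had 1 under vehicle, and S51 TE had 0. With library totals alone, TE had 2 genes for bortezomib in S51 and 1 for S51 over S51A under bortezomib. Leaving out 1 library at a time gave 0 to 2 genes for the RPF response difference, 0 to 1 for S51 TE and 0 to 1 for TE under bortezomib. Each called RPF and RNA change with bortezomib kept its direction and its side of the threshold under every alternative run, except, at the 2-fold threshold, Nfe2l2 RPF (0.83) and Gclc RNA (0.85) in S51.

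The replicate block, for RPF and RNA or for the lysate, took the S51 TE count to 0 and changed no other count of the 10 genes. The labels do not say that a number marks a shared lysate or day, and the correlations of same-numbered deviations did not all pass 0.1, so that numbers were not used as pairs. Their median was 0.09 in RNA (24 pairs, all above 0, 8 over 0.1, against 0 of 72 pairs with other numbers), 0.04 in RPF (21 pairs, 4 over 0.1) and 0.095 between RPF and RNA of 1 group (15 pairs, 7 over 0.1), which were taken from shared lysates. As a hint from the data and not the design, the own number was the closest in 42 of 48 RNA and 16 of 42 RPF comparisons. Depth limits Nqo1 most, and RPF more than RNA.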
